A study of Mus musculus with 22 samples.

Results

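Hepatocytes of juvenile mice that lack both methyltransferases of Polycomb repressive complex 2 (PRC2) were compared with wild-type hepatocytes at postnatal day 14 (P14). The 12 libraries were chosen by their labels from the 22 of the series: 7 of genotype Alb-Cre;Ezh1-/-;Ezh2f/f (2 males and 5 females), called mutants here, and 5 of genotype Wt (3 males and 2 females). Ezh1 is deleted in all cells of the mutants, whereas the floxed Ezh2 alleles are removed where the albumin promoter drives Cre, which is in hepatocytes. The sources used here do not give the strain of either group, nor whether the wild-type mice carry Alb-Cre. The series title poses the role of EZH1 and EZH2 in the maturation of the liver after birth. The comparison below is of all genes, with weight on those outside the classical developmental regulators.

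PRC2 adds methyl groups to lysine 27 of histone H3, a mark found over silent promoters, and EZH1 and EZH2 are its alternative catalytic subunits, held in the complex by EED and SUZ12. PRC1, the partner complex, reads the mark through CBX proteins. Its best known targets are homeobox and other genes of embryonic patterning, which liver cells do not use. At P14 the mouse still suckles a fat-rich milk, and hepatocytes burn its fatty acids, export part of the carbon as ketone bodies, and take up the adult programmes of drug, sterol and bile acid metabolism around weaning.

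Polyadenylated RNA was counted per gene. Levels are given as CPM, reads scaled to the size of each library after correction for its composition. The P14 libraries held 12427095 to 19222753 counted reads. Mutant male 1 stands apart in its share of the ribosomal transcript Rn45s, at 32.6% of reads against 10.9% to 18.5% in the other 11. The first principal component (43.1% of variance) separated the genotypes, with the wild-type libraries at −55.8 to −40.6 and the mutants at 18.3 to 48.3. The second (17.6%) spread the mutants, with mutant female 1, female 2 and male 1 at −47.2, −34.5 and −22.2 and male 2, female 4, female 5 and female 3 at 44.2, 26.8, 11.1 and 5.66. In all libraries hepatocyte genes were high: the 20 hepatocyte identity genes summed to 287000 to 372000 CPM in wild-type and 199000 to 287000 CPM in mutants. Alb, the gene of albumin, measured 191197, 207380.2 and 157185 CPM in wild-type males, 178810.0 and 174946 CPM in wild-type females and 102338 to 172699 CPM (median 131219.6) in mutants and did not pass edgeR's test (log2 fold change −0.42, SE 0.18, adjusted p = 0.119), whereas DESeq2 and limma-voom called it lower (adjusted p = 0.0302 and 0.0427). In bulk RNA, fewer cells of a type and less RNA per cell cannot be told apart.

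More genes were higher than lower in mutants, and the higher ones more often lay at a low level in wild-type. Of 13493 genes tested with edgeR's quasi-likelihood test, 1588 (11.8%) were higher and 929 (6.89%) lower at a Benjamini-Hochberg adjusted p under 0.05, with males and females weighted equally. These 2 percentages are the background for each list below. At least 4-fold changes numbered 503 upward and 39 downward, and at least 16-fold changes 161 upward and 1 downward. Of the genes called higher, 582 lay under 1 CPM in wild-type on average, 66 had no read in any wild-type library, and 54 exceeded 100 CPM. Of the 582, 544 were read in every mutant library, as were 42 of the 66. Among genes called lower, 13 lay under 1 CPM and 136 exceeded 100 CPM in wild-type. Among genes of mean log2 CPM at or below 0, 22.2% were higher and 2.01% lower, whereas above a mean log2 CPM of 8, 9.32% were higher and 11.6% lower; a gene near 0 in wild-type can hardly be called lower. The lists of developmental transcription factors, secreted signals and neuronal genes hold 72 of the genes called higher and 5 of those called lower. That leaves 1516 and 924 outside them, but the lists are not complete. Called higher were 48 of 70 tested factors, 14 of 49 signals (28.6%) and 10 of 39 neuronal genes (25.6%). The neuronal count was 6 without mutant male 2 or wild-type female 1. The last 2 shares stand beside 11.8% over all genes, but also beside the 22.2% at the lowest levels. Of the genes listed, 49 of 70 signals and 39 of 81 neuronal genes were tested. Tested signals include Wnt11, with 1 wild-type read, which could hardly be called lower. The part of a low level in these 2 shares was not tested. For the developmental factors, limits are given below. Groups did not overlap in CPM for 869 of the genes called higher and 420 of those called lower. Called genes were selected for a difference, and the share over all genes tested was not counted. These counts are thus no separate support. No gene passed the edgeR test of whether the mutant effect differed between the sexes (324 genes, or 2.4%, at an unadjusted p under 0.05), and DESeq2 and limma-voom also called 0. Counts depend on single libraries: without mutant male 2, wild-type female 1 or wild-type female 2 the numbers of genes higher fell to 986, 1042 and 1039, and of genes lower to 481, 491 and 508.

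**Figure D1:**
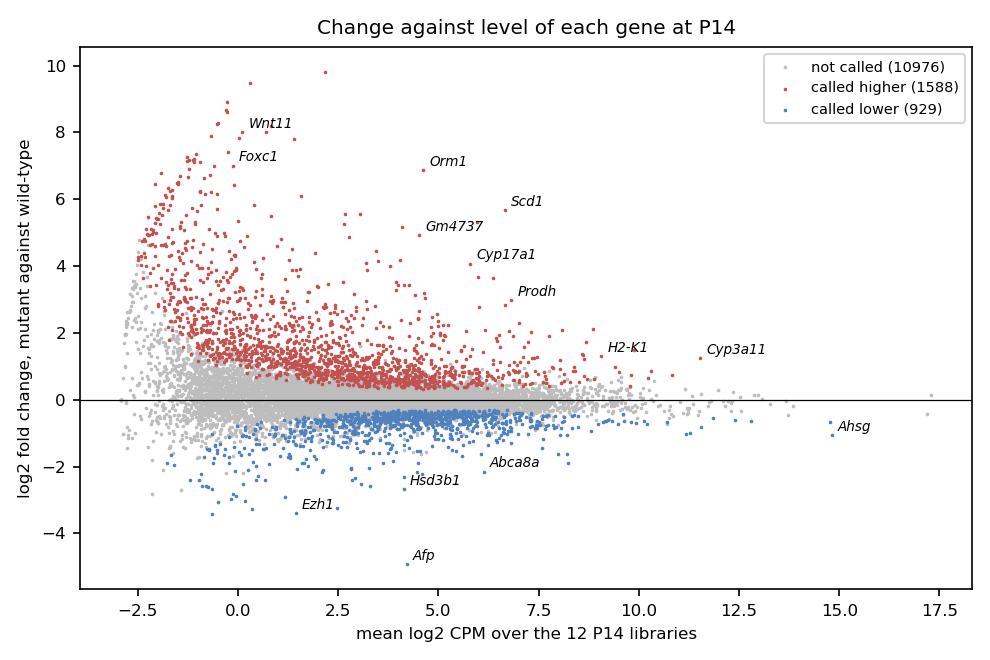
Each point is 1 of the 13493 genes tested, with its mean log2 CPM over the 12 P14 libraries on the x axis and its fitted log2 fold change, mutant against wild-type, on the y axis; red points were called higher, blue points lower and grey points not called. The red points reach furthest up at low levels, where 22.2% of genes at or below 0 were called higher, and Afp is the lowest blue point.

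The lists of genes by function moved in different directions. Over the lists with at least 12 tested members, the share called higher ran from 0 to 17 of 23 sterol synthesis genes, beside the background of 11.8%, and the share called lower reached 7 of 21 genes of the growth hormone and IGF axis and 10 of 34 genes of fatty acid oxidation and ketogenesis, beside 6.89%. The 45 genes of oxidative phosphorylation had a median log2 fold change of −0.000435, and edgeR called none of them (2 higher and 1 lower at an unadjusted p under 0.05). DESeq2 called 2 higher, limma-voom 2 higher and 2 lower, and edgeR 5 lower and 1 higher without mutant male 1 and 1 without mutant female 2 or wild-type male 2 or 3. Over all genes tested the median was 0.03.

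**Figure D2:**
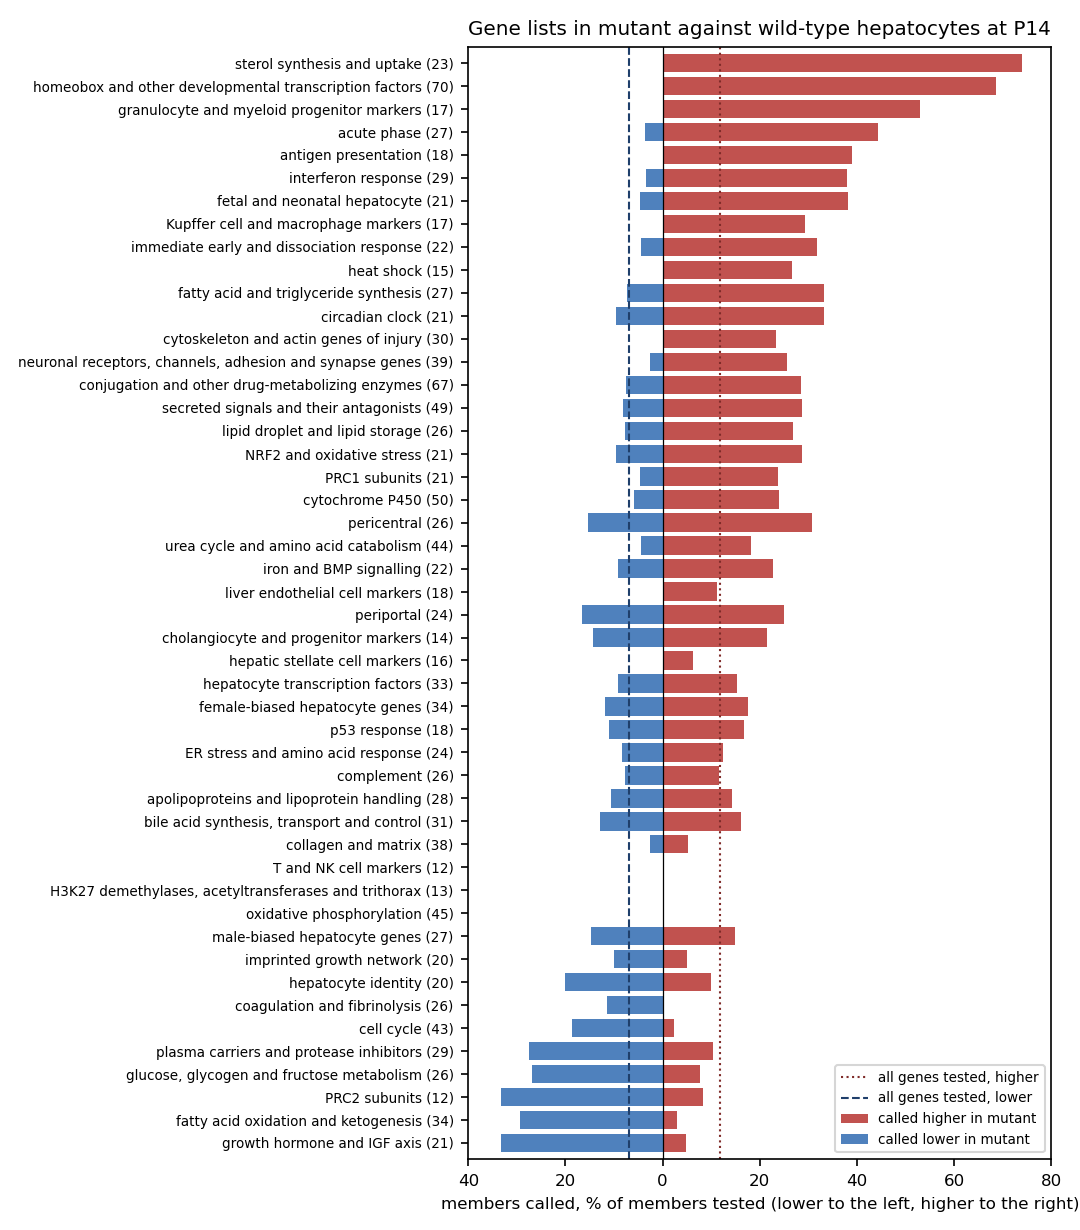
Bars give the percentage of each list's tested members (number in parentheses) that were called higher (red, to the right) or lower (blue, to the left) in mutants. Lists are ordered by the percentage higher minus the percentage lower, and those of few tested members, such as the CDK inhibitors, are left out. The broken lines mark the 11.8% higher and 6.89% lower over all genes tested. Sterol synthesis and acute phase genes extend to the right, while fatty acid oxidation, plasma carriers and the growth hormone axis extend to the left.

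The deleted Ezh1 checks the labels. It measured 11, 9.4 and 10.6 CPM in wild-type males and 9.98 and 10.3 CPM in wild-type females. Mutant Ezh1 lay at 0.466 to 1.37 CPM, median 0.878 (log2 fold change −3.40, SE 0.22, adjusted p = 5.73e-09). Every mutant library lay far below every wild-type library. Ezh2 measured 9.26, 9.99 and 8.23 CPM in wild-type males and 7.22 and 8.69 CPM in wild-type females. Mutant Ezh2 lay at 3.69 to 7.36 CPM, median 5.84 (log2 fold change −0.64, SE 0.19, adjusted p = 0.0231), with the mutants lower but 1 wild-type library inside their range. Its counts include exons outside any deleted part, and leaving out wild-type female 2 gave −0.58 (adjusted p = 0.0988), and mutant male 2 −0.56 (adjusted p = 0.12), neither of which passes. The core partners did not pass: Eed measured 8.57 to 12.1 CPM in wild-type and 6.63 to 9.74 CPM in mutants (log2 change −0.17, SE 0.14, adjusted p = 0.466) and Suz12 17.5 to 33.3 CPM in wild-type and 18.4 to 26.2 CPM in mutants (log2 change −0.06, SE 0.14, adjusted p = 0.829). The histone chaperone subunit Rbbp7 fell, at 57.6 to 73.9 CPM in wild-type and 35 to 46.3 CPM in mutants (log2 change −0.69, SE 0.12, adjusted p = 0.000265), with groups that did not overlap. Of the 12 PRC2 subunits tested, 4 were lower (Ezh1, Ezh2, Rbbp4 and Rbbp7) and 1 higher; 2 were lower without mutant male 2 or wild-type female 2, and 2 higher without mutant female 4. The 1 that rose is E130012A19Rik, the table's name for Epop, an accessory subunit that links PRC2 to elongin, at 2.18, 2.71 and 3.12 CPM in wild-type males and 4.87 and 2.78 CPM in wild-type females. Mutant E130012A19Rik lay at 9.79 to 16.6 CPM, median 13.5 (log2 fold change 2.04, SE 0.19, adjusted p = 4.31e-07).

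Several subunits of the reader complex rose. Of 21 PRC1 subunits, 5 were called higher, among them Cbx6, Bmi1, Cbx7 and Pcgf5, and 1, Kdm2b, lower, with a median of 0.18; the Kdm2b call was lost without mutant male 1 or wild-type male 3, female 1 or female 2. Cbx6, a reader of the methyl mark, measured 3.45, 3.47 and 3.38 CPM in wild-type males and 3.29 and 3.37 CPM in wild-type females. Mutant Cbx6 lay at 9.68 to 12.7 CPM, median 10.3 (log2 fold change 1.64, SE 0.16, adjusted p = 5.48e-07), and the wild-type values were nearly equal and below all mutants. Bmi1, a ring finger partner of the PRC1 ubiquitin ligase, measured 13.5 to 24.9 CPM in wild-type and 33.1 to 43.6 CPM in mutants (log2 change 1.09, SE 0.21, adjusted p = 0.000818), again without overlap. Cbx7 was low in both groups, at 0.908 to 2.17 CPM in wild-type and 2.59 to 5.34 CPM in mutants (log2 change 1.05, SE 0.26, adjusted p = 0.00783). A larger change was in Sfmbt2, an imprinted Polycomb gene best known from placenta, at 0.363, 0.169 and 0.383 CPM in wild-type males and 0.176 and 0.177 CPM in wild-type females. Mutant Sfmbt2 lay at 4.77 to 10.8 CPM, median 6.74 (log2 fold change 4.81, SE 0.33, adjusted p = 7.51e-09). None of the 13 demethylases, acetyltransferases and trithorax genes that act against the mark was called by edgeR, DESeq2 or limma-voom (0 higher and 1 lower at an unadjusted p under 0.05 in edgeR).

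Foxc1, Wnt11 and Igf2bp1, nearly silent in wild-type hepatocytes, were read in all mutants. Of the 123 developmental transcription factors listed, 53 had too few reads to be tested. Of the 70 tested, 31 had no wild-type read and passed the filter on low counts only through other libraries, so that they could not be called lower and their count is not read against the background; 27 of them were called higher. Of the 39 with a wild-type read, 21 were called higher and 0 lower. Some of these, such as Foxc1 with 2 wild-type reads, could hardly be called lower either, so this count is not read against the background. The 48 calls of both kinds fell to 31 without mutant male 2, and to 31 in a fit of the P14 libraries alone. Foxc1, a forkhead factor of mesenchyme, measured 0, 0 and 0 CPM in wild-type males, 0.0587 and 0.0591 CPM in wild-type females and 2.42 to 4.04 CPM (median 3.01) in mutants, which is 349 reads over the mutants against 2 over the wild-type libraries, a depth-scaled ratio of 119 (exact 95% interval 32.6 to 984). Wnt11, a secreted signal, measured 0, 0 and 0 CPM in wild-type males, 0 and 0.0591 CPM in wild-type females and 2.79 to 9.98 CPM (median 3.69) in mutants, or 504 reads over the mutants against 1 over the wild-type libraries, a depth-scaled ratio of 343 (exact 95% interval 61.2 to 13600). Igf2bp1, a fetal RNA-binding protein, measured 0, 0 and 0 CPM in wild-type males, 0 and 0.0591 CPM in wild-type females and 3.08 to 6.56 CPM (median 3.78) in mutants, or 436 reads over the mutants against 1 over the wild-type libraries, a depth-scaled ratio of 296 (exact 95% interval 52.9 to 11700). These intervals cover counting error only, since reads are not independent molecules. In each of the 3 genes, every mutant library exceeded every wild-type library, and edgeR called them higher (adjusted p = 5.73e-09, 5.22e-06 and 3.04e-08). Without wild-type female 2, which holds their single wild-type read, the fitted log2 changes of Wnt11 and Igf2bp1 went from 8.0 and 7.82 to 9.09 and 8.91. The RefSeq promoter window of Foxc1 (GRCm38.p6, chr13:31806396-31806695, plus strand, from 250 bases before to 50 after the start) is shown as a silent gene that rose, beside that of Cyp2c55 (chr19:39006769-39007068, plus strand), a cytochrome P450 gene that wild-type cells express and that also rose. The sequences run 5′ to 3′ on the strand of the gene, and capitals mark each CpG.
Foxc1: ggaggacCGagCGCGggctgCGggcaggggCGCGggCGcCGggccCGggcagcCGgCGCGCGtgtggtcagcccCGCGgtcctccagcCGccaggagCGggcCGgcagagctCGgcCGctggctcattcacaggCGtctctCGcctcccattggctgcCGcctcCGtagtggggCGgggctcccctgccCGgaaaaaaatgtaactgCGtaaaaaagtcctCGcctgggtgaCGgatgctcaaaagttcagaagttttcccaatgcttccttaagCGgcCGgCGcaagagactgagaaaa
Cyp2c55: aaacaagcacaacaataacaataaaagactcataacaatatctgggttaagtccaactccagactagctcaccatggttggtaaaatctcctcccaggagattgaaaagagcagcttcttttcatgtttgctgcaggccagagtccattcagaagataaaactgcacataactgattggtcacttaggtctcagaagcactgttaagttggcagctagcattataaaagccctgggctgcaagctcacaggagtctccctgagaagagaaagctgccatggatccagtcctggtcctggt
The Foxc1 window holds 32 CpG and 67.3% GC, whereas the Cyp2c55 window holds 0 CpG and 44.7% GC. The 2 are single examples and do not show how silent genes that rose differ from expressed genes that rose. Few cytochrome P450 windows are rich in CpG, counted over the whole list without a split by call. Of 41 such windows, 3 held at least 0.6 of the CpG expected from their C and G content. A comparison over all genes called higher is void, because 76.3% of them have an entry in the promoter table, under the 80% needed.

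Other genes of a low wild-type level also rose. Zdbf2, an imprinted zinc finger gene, measured 0 to 0.0908 CPM in wild-type and 0.737 to 4.36 CPM in mutants (log2 change 5.0, SE 0.56, adjusted p = 5.53e-06). Bmper, a secreted BMP modulator, measured 0.254 to 1.12 CPM in wild-type and 4.51 to 19.098 CPM in mutants (log2 change 3.92, SE 0.32, adjusted p = 6.76e-08). Neither overlapped between groups. Gpc1, a cell surface proteoglycan counted with the fetal genes, measured 0.931 to 1.47 CPM in wild-type and 7.49 to 20.8 CPM in mutants (log2 change 3.48, SE 0.25, adjusted p = 1.71e-08). Among 21 genes of the fetal liver cell, 8 were higher and 1 lower (5 higher without wild-type female 2; 3 lower without mutant male 1). The fetal serum protein Afp went the other way, at 117, 99.1 and 126 CPM in wild-type males and 261 and 77.3 CPM in wild-type females. Mutant Afp lay at 2.49 to 9.02 CPM, median 3.93 (log2 fold change −4.93, SE 0.39, adjusted p = 4.71e-08), the only gene of all called lower with at least a 16-fold change. The cell cycle inhibitors of the Cdkn2 locus, a standard Polycomb target, stayed very low. Cdkn2b gave 40 reads over the mutants against 1 over the wild-type libraries, a depth-scaled ratio of 27.2 (exact 95% interval 4.61 to 1100) at no more than 0.663 CPM. Cdkn2a gave 32 reads over the mutants against 1 over the wild-type libraries, a depth-scaled ratio of 21.8 (exact 95% interval 3.63 to 886), a call (adjusted p = 0.00967) lost without mutant male 2 (adjusted p = 0.0693), with a replicate block (0.089) and in females alone (0.397). Without the wild-type library that holds the single read (male 1 and female 1), their fitted log2 changes went from 4.60 and 4.31 to 5.64 and 5.39. Neither gene passed the filter on low counts in a fit of the P14 libraries alone. Both were thus tested only with the older libraries of the series included.

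Several genes with firm increases were on none of the lists. Gm4737, a predicted gene, measured 2.45, 3.13 and 3.44 CPM in wild-type males and 2.82 and 3.73 CPM in wild-type females. Mutant Gm4737 lay at 59.5 to 119 CPM, median 96.4 (log2 fold change 4.93, SE 0.27, adjusted p = 6.67e-10), and a predicted gene can share reads with its source gene. Sntg2, a syntrophin scaffold protein, measured 0.182 to 0.762 CPM in wild-type and 6.02 to 9.26 CPM in mutants (log2 change 4.19, SE 0.26, adjusted p = 3.8e-09). Wfdc2, a secreted protease inhibitor of epithelia, measured 1.47 to 2.91 CPM in wild-type and 14.2 to 23.1 CPM in mutants (log2 change 3.16, SE 0.21, adjusted p = 5.99e-09). Evc, a ciliary protein, measured 1.63, 1.78 and 1.72 CPM in wild-type males and 1.76 and 1.71 CPM in wild-type females. Mutant Evc lay at 8.61 to 14.9 CPM, median 12.1 (log2 fold change 2.76, SE 0.19, adjusted p = 6.99e-09). Tff3, a trefoil peptide of mucous epithelia, measured 1.09 to 3.13 CPM in wild-type and 23 to 69.7 CPM in mutants (log2 change 4.45, SE 0.36, adjusted p = 6.11e-08). All 5 kept their call when any of the 12 libraries was left out, and in none did the groups overlap. The genes were picked for a small p or for groups without overlap, so neither is separate support.

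Secreted signals moved both ways. Of 49 secreted signals and antagonists, 14 (28.6%) were higher (8 without mutant male 2) and 4 (8.16%, near the background) lower, and the 4 were Inhbb, Fgf21, Bmp4 and Inhbc. Inhbb, a subunit of activin, measured 29.9, 8.98 and 15.9 CPM in wild-type males and 27.9 and 16.1 CPM in wild-type females. Mutant Inhbb lay at 1.79 to 9.26 CPM, median 2.33 (log2 fold change −2.39, SE 0.46, adjusted p = 0.000965), with 1 wild-type male inside the mutant range. Bmp4, a bone morphogenetic protein, measured 3.63 to 5.67 CPM in wild-type and 1.05 to 2.83 CPM in mutants (log2 change −1.34, SE 0.27, adjusted p = 0.00145), and its groups did not overlap. Grb10, an imprinted brake on insulin and IGF receptor signalling, measured 63.5, 44.3 and 58.9 CPM in wild-type males and 75.1 and 66.9 CPM in wild-type females. Mutant Grb10 lay at 24 to 36.4 CPM, median 28.1 (log2 fold change −1.14, SE 0.16, adjusted p = 3.19e-05), also without overlap. Of 20 genes of the imprinted growth network, 1 was higher (2 without wild-type male 2, mutant male 1 or mutant female 3) and 2 lower; the second, Cdkn1c, lost its call without mutant male 2 or wild-type female 1, male 1 or male 2, with a replicate block and in a fit of the P14 libraries alone (adjusted p = 0.0509 and 0.0587).

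Ketone bodies are made in liver mitochondria, where ACAT1 acts early and BDH1 last, and are used elsewhere through OXCT1, which hepatocytes normally keep off. In mutants Acat1 and Bdh1 fell, and Oxct1 rose. Oxct1 measured 4.18, 3.64 and 3.95 CPM in wild-type males and 3.35 and 2.66 CPM in wild-type females. Mutant Oxct1 lay at 12.5 to 18.2 CPM, median 17 (log2 fold change 2.23, SE 0.16, adjusted p = 9.19e-09). Each mutant lay far above every wild-type library. Bdh1 measured 435, 397 and 405 CPM in wild-type males and 533 and 474 CPM in wild-type females. Mutant Bdh1 lay at 187 to 308 CPM, median 207 (log2 fold change −1.07, SE 0.18, adjusted p = 0.000233). Acat1 measured 616, 603 and 567 CPM in wild-type males and 767 and 681 CPM in wild-type females. Mutant Acat1 lay at 263 to 444 CPM, median 348 (log2 fold change −0.94, SE 0.21, adjusted p = 0.00272). In both genes every mutant lay below every wild-type library, and all 3 calls were kept in each of the 12 leave-outs.

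**Figure D3:**
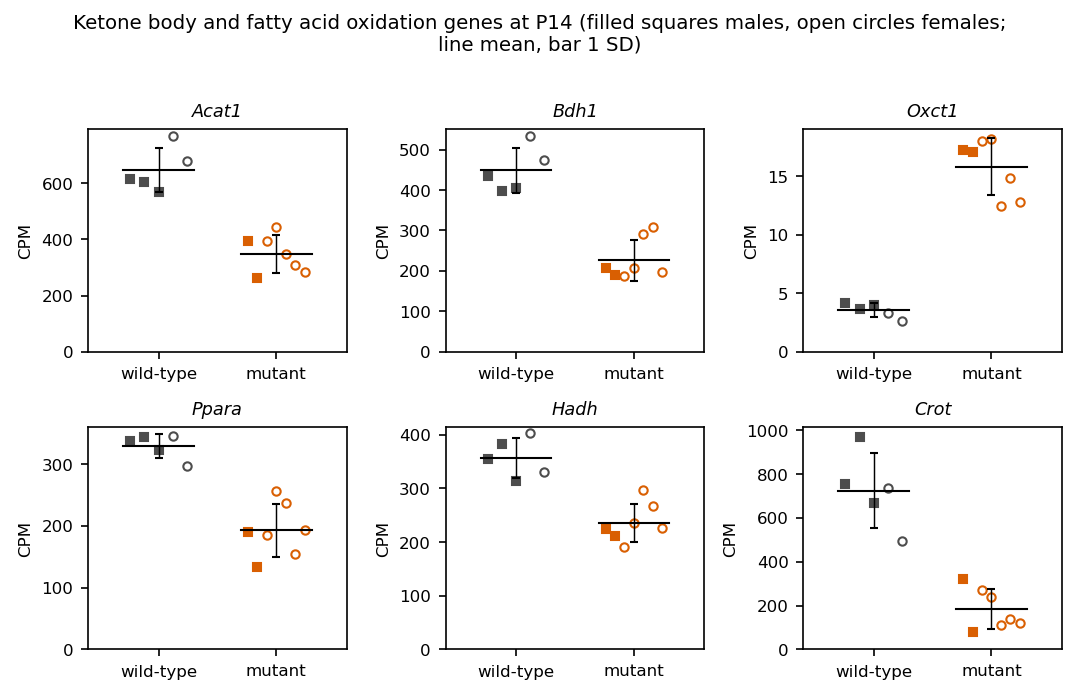
CPM (y axis, linear, from 0) of 6 genes of ketone body and fatty acid metabolism in each wild-type (grey) and mutant (orange) P14 library, with filled squares for males, open circles for females, a line at the mean and a bar of 1 SD. Oxct1 lies between 12.5 and 18.2 in mutants and at or below 4.18 in wild-type, while the other 5 genes lie lower in every mutant than in any wild-type library.

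Part of fatty acid oxidation fell with them. Of 34 tested, 10 were lower and 1 higher, with a median of −0.34; 6 were lower without mutant male 2, wild-type female 1 or female 2, and 2 were higher without wild-type male 3, mutant male 1 or mutant female 5. Ppara, the nuclear receptor that drives this programme in the suckling liver, measured 338, 344 and 322 CPM in wild-type males and 346 and 298 CPM in wild-type females. Mutant Ppara lay at 133 to 256 CPM, median 190.5 (log2 fold change −0.85, SE 0.15, adjusted p = 0.000471). Hadh, a dehydrogenase of the mitochondrial cycle, measured 313 to 404 CPM in wild-type and 190.2 to 297 CPM in mutants (log2 change −0.64, SE 0.15, adjusted p = 0.00541). Crot, which hands peroxisomal chain-shortened fatty acids to carnitine, was not on the list and measured 753, 971 and 668 CPM in wild-type males and 735 and 495 CPM in wild-type females. Mutant Crot lay at 78.1 to 322 CPM, median 140.3 (log2 fold change −1.89, SE 0.32, adjusted p = 0.000333), and the log2 change was −2.58 (adjusted p = 4.41e-05) without mutant male 1. In the 3 genes the groups did not overlap. The 1 member that rose was Acot1, a thioesterase that is itself a PPARα target, at 0.454 to 0.893 CPM in wild-type and 2.21 to 4.44 CPM in mutants (log2 change 2.21, SE 0.41, adjusted p = 0.000744); it has near copies next to it, so its reads are uncertain.

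Sterol and fatty acid synthesis rose unevenly among the mutants. Of 23 genes of sterol synthesis and uptake, 17 were higher and 0 lower, with a median of 1.90. Mutant male 2 and females 4, 5 and 3 had a mean log2 CPM of the list 2.81, 2.11, 1.68 and 1.13 above the wild-type mean, whereas mutant male 1 and females 2 and 1 lay at −0.04, −0.48 and −0.49. The wild-type libraries ran from −0.40 to 0.35. The same 4 libraries lay on the positive side of the second principal component. Markers of other cell types split the mutants likewise: the mean log2 CPM of 18 endothelial markers was 5.70, 5.85 and 5.25 in mutant male 1, female 1 and female 2, against 4.58 to 5.01 in the other 4 mutants and 4.51 to 4.95 in wild-type. That of 16 stellate cell markers was 4.34, 4.35 and 3.97 in those 3, against 2.93 to 3.84 and 3.52 to 3.79. Their part in the sterol values was not tested. The count fell to 5 without wild-type female 1, 7 without wild-type female 2 and 2 without mutant male 2. Insig1, the sterol sensor that holds SREBP back, was above wild-type in all mutants, at 24.6 to 48.9 CPM in wild-type and 58.9 to 245 CPM in mutants (log2 change 2.08, SE 0.39, adjusted p = 0.000685), and the log2 change was 1.41 (adjusted p = 0.0136) without mutant male 2.

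Of 27 fatty acid and triglyceride synthesis genes, 9 were higher and 2 lower; 5 were higher without wild-type female 1, 4 without wild-type female 2, 3 without mutant male 2 and 14 without mutant male 1. Scd1, the desaturase that makes oleate, measured 21.3, 15.3 and 14.7 CPM in wild-type males and 10.6 and 12.3 CPM in wild-type females. Mutant Scd1 lay at 108 to 1954 CPM, median 430.4 (log2 fold change 5.67, SE 0.72, adjusted p = 1.31e-05). Even the lowest mutant was above every wild-type library, and the change was 4.03 (adjusted p = 3.1e-05) without mutant male 2. Elovl2, which lengthens polyunsaturated fatty acids, fell, at 724 to 933 CPM in wild-type and 416 to 649 CPM in mutants (log2 change −0.63, SE 0.15, adjusted p = 0.00586). Plin4, a lipid droplet coat protein, measured 1.19 to 8.16 CPM in wild-type and 10.8 to 42 CPM in mutants (log2 change 2.22, SE 0.39, adjusted p = 0.000408). G0s2, an inhibitor of the lipase ATGL, also rose and measured 18.1, 11.8 and 14.5 CPM in wild-type males and 14.8 and 16.8 CPM in wild-type females. Mutant G0s2 lay at 13.3 to 115 CPM, median 71.9 (log2 fold change 2.25, SE 0.37, adjusted p = 0.000242), with mutant female 2 inside the wild-type range. Over the 26 lipid droplet and storage genes, 7 were higher and 2 lower (4 lower without mutant male 1 or female 4). The 2 that fell were Fabp5, a fatty acid binding protein, at 66.3 to 122 CPM in wild-type and 7.32 to 61.3 CPM in mutants (log2 change −1.51, SE 0.30, adjusted p = 0.00139), and Fitm1, a droplet assembly protein, at 3.7 to 7.88 CPM in wild-type and 0.492 to 2.81 CPM in mutants (log2 change −1.68, SE 0.35, adjusted p = 0.00207), with a log2 change of −2.35 (adjusted p = 0.0017) without mutant male 2.

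**Figure D4:**
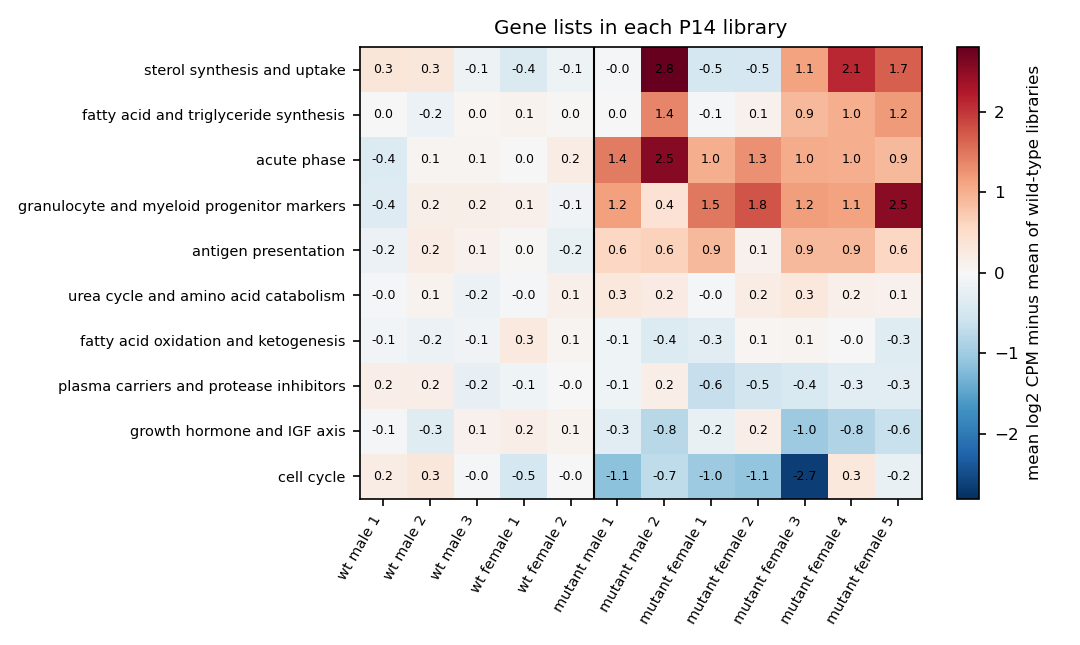
Rows are 10 gene lists and columns the 12 P14 libraries; each cell, coloured and printed, is the mean log2 CPM of the list's tested members minus the mean of the 5 wild-type libraries. Sterol synthesis is high in mutant male 2 and females 3, 4 and 5 and near wild-type in mutant male 1 and females 1 and 2, while acute phase genes are high in all 7 mutants.

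Of 26 glucose, glycogen and fructose genes, 7 fell and 2 rose (3 fell without wild-type female 1). Pklr, the liver pyruvate kinase of glycolysis, fell, at 123, 135 and 174 CPM in wild-type males and 162 and 171 CPM in wild-type females. Mutant Pklr lay at 38.5 to 106 CPM, median 65.4 (log2 fold change −1.14, SE 0.25, adjusted p = 0.00267), without overlap. Pygl, the liver glycogen phosphorylase, measured 452 to 606 CPM in wild-type and 219 to 390.5 CPM in mutants (log2 change −0.83, SE 0.15, adjusted p = 0.000436). Sds, which makes pyruvate from serine, measured 94 to 212 CPM in wild-type and 191 to 316 CPM in mutants (log2 change 0.83, SE 0.17, adjusted p = 0.00188), with 1 wild-type female inside the mutant range.

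Some genes of amino acid breakdown rose. Of 44 genes of the urea cycle and amino acid catabolism, 8 (18.2%) were higher and 2 (4.55%) lower, with a median of 0.02. Over all genes the shares were 11.8% and 6.89%. The 2 lower calls were both lost without mutant male 2, wild-type female 1 or female 2. Of them, 1 was lost without wild-type male 1 or 2 or mutant female 4 or 5. Prodh, which starts the breakdown of proline, measured 18.7, 33.2 and 36.2 CPM in wild-type males and 23.5 and 66 CPM in wild-type females. Mutant Prodh lay at 218 to 365 CPM, median 264 (log2 fold change 2.98, SE 0.25, adjusted p = 6.4e-08). Oat, which feeds ornithine into the same glutamate semialdehyde pool, measured 68, 79.3 and 72.9 CPM in wild-type males and 64.1 and 78.4 CPM in wild-type females. Mutant Oat lay at 158 to 294 CPM, median 221 (log2 fold change 1.59, SE 0.18, adjusted p = 3.17e-06). For both genes every mutant was well above the highest wild-type library. Acmsd, which diverts tryptophan carbon away from NAD synthesis, measured 3.64 to 11.3 CPM in wild-type and 13.4 to 48.2 CPM in mutants (log2 change 2.17, SE 0.30, adjusted p = 4.15e-05). Hpd, of tyrosine breakdown, rose from an already high level, at 1076 to 1534 CPM in wild-type and 1634 to 2644 CPM in mutants (log2 change 0.74, SE 0.17, adjusted p = 0.00519).

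Bile acid genes moved both ways, with 5 of 31 (16.1%) higher and 4 (12.9%) lower, beside 11.8% and 6.89% over all genes. Without mutant male 2, 2 were lower. The efflux pumps of the basolateral membrane were among those that rose. Abcc3 measured 36.9, 20.7 and 54.8 CPM in wild-type males and 59.8 and 74.5 CPM in wild-type females. Mutant Abcc3 lay at 131 to 250.5 CPM, median 201 (log2 fold change 2.06, SE 0.26, adjusted p = 1.22e-05). Abcc4 measured 2.27, 2.37 and 3.19 CPM in wild-type males and 2.41 and 2.19 CPM in wild-type females. Mutant Abcc4 lay at 9.42 to 27.3 CPM, median 11.2 (log2 fold change 2.34, SE 0.25, adjusted p = 2.05e-06). No wild-type library reached the mutant range of either pump. Cyp7b1, an oxysterol hydroxylase of the alternative pathway, measured 0.887 to 2.3 CPM in wild-type and 2.35 to 11.8 CPM in mutants (log2 change 2.33, SE 0.45, adjusted p = 0.000965). Among the 4 that fell, Hsd3b7, the sterol dehydrogenase of bile acid synthesis, measured 339 to 425 CPM in wild-type and 116 to 311 CPM in mutants (log2 change −0.86, SE 0.20, adjusted p = 0.00465), and Akr1c6, an aldo-keto reductase with close copies, measured 406 to 956 CPM in wild-type and 62.3 to 287 CPM in mutants (log2 change −1.63, SE 0.35, adjusted p = 0.00232).

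Genes of drug and hormone metabolism were called higher more often than lower, but the mutants were uneven. Of 50 cytochrome P450 genes, 12 were higher and 3 lower (1 lower without wild-type female 2, 6 without wild-type male 3, 5 without mutant female 3 or female 5), and of 67 conjugation and related enzymes, 19 were higher and 5 lower (3 lower without wild-type female 1, 2 without wild-type female 2 or mutant male 1). In mutant females 1 and 2 the mean log2 CPM of the P450 list was 5.06 and 5.04, below the wild-type libraries (5.15 to 5.52). The other mutants lay at 5.41 to 6.27. That of the conjugation list was 4.71 and 4.86 in females 1 and 2, also below wild-type (4.92 to 5.36). The other mutants lay at 5.43 to 6.13. Cyp17a1, the steroid hydroxylase and lyase, measured 6.45, 10.6 and 10.6 CPM in wild-type males and 8.81 and 20.6 CPM in wild-type females. Mutant Cyp17a1 lay at 111 to 346 CPM, median 163 (log2 fold change 4.08, SE 0.36, adjusted p = 1.74e-07), with every mutant far above every wild-type library. Cyp26a1, which clears retinoic acid, measured 0 to 0.254 CPM in wild-type and 2.58 to 23.8 CPM in mutants (log2 change 8.18, SE 0.86, adjusted p = 2.05e-06), with a log2 change of 7.38 (adjusted p = 9.33e-06) without mutant male 2. Cyp2c55, whose promoter without a CpG is shown above, measured 6.75 to 24.9 CPM in wild-type and 31.4 to 88.7 CPM in mutants (log2 change 2.58, SE 0.29, adjusted p = 3.47e-06). Cyp3a11, the main drug oxidase of mouse liver, measured 1892, 3031 and 1519 CPM in wild-type males and 1611 and 1558 CPM in wild-type females. Mutant Cyp3a11 lay at 2213 to 5479 CPM, median 4777 (log2 fold change 1.26, SE 0.26, adjusted p = 0.00152), with wild-type male 2 inside the mutant range. Por, which passes electrons to all microsomal P450 enzymes, measured 281 to 624 CPM in wild-type and 654 to 1144 CPM in mutants (log2 change 0.99, SE 0.18, adjusted p = 0.000577), and Alas1, the first step of haem synthesis, measured 159 to 286 CPM in wild-type and 249.6 to 1390.2 CPM in mutants (log2 change 1.72, SE 0.32, adjusted p = 0.000685). Gstm1, a glutathione transferase, measured 157 to 281 CPM in wild-type and 559.7 to 1328 CPM in mutants (log2 change 2.11, SE 0.23, adjusted p = 2.66e-06). Against this direction, Cyp2a22 measured 301 to 375 CPM in wild-type and 67 to 215 CPM in mutants (log2 change −1.43, SE 0.29, adjusted p = 0.00166) and the sulfotransferase Sult1c2 measured 9.95 to 20.6 CPM in wild-type and 3.98 to 7.05 CPM in mutants (log2 change −1.56, SE 0.23, adjusted p = 7.02e-05). Members of the Cyp2a, Cyp2c, Cyp3a and Gstm families are near-identical copies, so the counts of single members are uncertain.

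Plasma carriers fell more often than they rose, and acute phase genes rose more often than they fell. Of 29 plasma carriers and protease inhibitors, 8 were lower and 3 higher, with a median of −0.41 (4 lower without mutant male 2 or wild-type female 1). Ahsg (fetuin A), among the most abundant messages of these cells, measured 47158, 53282 and 36843 CPM in wild-type males and 47367 and 41023 CPM in wild-type females. Mutant Ahsg lay at 16983 to 23598 CPM, median 21751 (log2 fold change −1.07, SE 0.19, adjusted p = 0.00046). Itih2, a hyaluronan-binding inhibitor chain, measured 3266 to 4340.3 CPM in wild-type and 1208 to 2421 CPM in mutants (log2 change −0.99, SE 0.18, adjusted p = 0.000515). Coagulation genes gave 3 lower and 0 higher of 26 (1 lower without mutant male 2, wild-type female 1 or female 2), and of these F11, coagulation factor XI, measured 136, 150.1 and 126 CPM in wild-type males and 144 and 127 CPM in wild-type females. Mutant F11 lay at 43.9 to 73.9 CPM, median 46.5 (log2 fold change −1.36, SE 0.21, adjusted p = 0.000106). Sort1, the sorting receptor that acts on lipoprotein secretion, measured 34.3, 30.9 and 30.2 CPM in wild-type males and 34.5 and 33.7 CPM in wild-type females. Mutant Sort1 lay at 9.28 to 18.7 CPM, median 12.1 (log2 fold change −1.44, SE 0.16, adjusted p = 2.42e-06). In these 4 genes every mutant lay below every wild-type library.

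Of 27 acute phase genes, 12 were higher and 1, Il1rn, lower, with a median of 0.63; the Il1rn call was lost without mutant male 2, and 2 were lower without wild-type male 3, mutant male 1 or mutant female 2. Lrg1, a leucine-rich plasma glycoprotein outside the list, measured 120.5, 124 and 114 CPM in wild-type males and 129 and 143 CPM in wild-type females. Mutant Lrg1 lay at 291 to 955 CPM, median 393 (log2 fold change 2.09, SE 0.26, adjusted p = 1.05e-05). Lcn2, a siderophore-binding lipocalin, measured 14.1, 22.5 and 20.3 CPM in wild-type males and 17.6 and 21.8 CPM in wild-type females. Mutant Lcn2 lay at 63.7 to 973 CPM, median 131 (log2 fold change 3.68, SE 0.43, adjusted p = 5.53e-06), with mutant male 2 far above the other mutants. The log2 change of Lcn2 was 2.64 (adjusted p = 7.51e-06) without mutant male 2. Clu, a secreted chaperone, measured 854 to 945 CPM in wild-type and 1319.9 to 2052 CPM in mutants (log2 change 0.85, SE 0.17, adjusted p = 0.00156). Serpina6, the glucocorticoid carrier of blood and 1 of the 3 listed carriers that rose, measured 365 to 760.5 CPM in wild-type and 732 to 1218 CPM in mutants (log2 change 0.83, SE 0.17, adjusted p = 0.00142), and C9, the pore-forming complement protein, measured 35.7 to 103 CPM in wild-type and 97 to 188 CPM in mutants (log2 change 1.56, SE 0.21, adjusted p = 2.97e-05). In both genes the highest wild-type library, male 2, was the 1 that reached the mutant range.

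Part of the growth hormone pathway fell, unevenly among the mutants. Of 21 tested, 7 were lower and 1 higher, with a median of −0.57; 4 were lower without wild-type female 2 or male 1, 3 without wild-type female 1 and 2 without mutant male 2. The list's mean log2 CPM less that of wild-type was −0.78, −1.01, −0.84 and −0.63 in mutant male 2 and females 3, 4 and 5. It was −0.30, −0.21 and 0.18 in mutant male 1 and females 1 and 2, within the −0.33 to 0.18 of wild-type libraries. Stat5b, the transcription factor that carries the growth hormone signal, measured 82.4, 53.1 and 79.8 CPM in wild-type males and 87.3 and 80.8 CPM in wild-type females. Mutant Stat5b lay at 26.5 to 48.9 CPM, median 39 (log2 fold change −1.08, SE 0.16, adjusted p = 9.66e-05). Socs2, its target and feedback inhibitor, measured 47.6, 69.6 and 42.8 CPM in wild-type males and 79.8 and 46.2 CPM in wild-type females. Mutant Socs2 lay at 1.23 to 26.7 CPM, median 7.29 (log2 fold change −2.30, SE 0.50, adjusted p = 0.00272), and varied widely among the mutants. Igf1r, the receptor of IGF1, which adult hepatocytes nearly lack, rose, at 1.61 to 5.29 CPM in wild-type and 5.11 to 19.6 CPM in mutants (log2 change 1.75, SE 0.35, adjusted p = 0.00137). Hsd3b1, a steroid dehydrogenase with near copies, was not on that list and measured 34.3 to 104 CPM in wild-type and 1.41 to 19.2 CPM in mutants (log2 change −2.66, SE 0.42, adjusted p = 0.00016), with a log2 change of −3.37 (adjusted p = 0.000339) without mutant male 2.

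Hepatocyte transcription factors moved both ways. Of 33 tested, 5 (15.2%) were higher and 3 (9.09%) lower, both near the background (3 higher without mutant male 2; 1 lower without mutant male 2 or wild-type female 1). Hnf4a, the central factor of hepatocyte identity, measured 432, 476 and 539 CPM in wild-type males, 582 and 588 CPM in wild-type females and 435 to 521 CPM (median 482) in mutants and did not pass the test (log2 fold change −0.14, SE 0.11, adjusted p = 0.434). Foxa3, a forkhead partner of it, measured 33.7 to 41.1 CPM in wild-type and 23.7 to 32.6 CPM in mutants (log2 change −0.45, SE 0.11, adjusted p = 0.00683). Cebpd, a factor of the acute phase, measured 0.817, 2.29 and 2.3 CPM in wild-type males and 4.7 and 4.38 CPM in wild-type females. Mutant Cebpd lay at 3.78 to 11.1 CPM, median 8.63 (log2 fold change 1.58, SE 0.26, adjusted p = 0.000237), with 2 wild-type females inside the mutant range.

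Genes with a place along the lobule moved both ways in both zones. Of 26 pericentral genes, 8 were higher and 4 lower (5 higher without wild-type female 1; 2 lower without mutant male 2), and of 24 periportal genes, 6 were higher and 4 lower (3 higher without mutant male 2, wild-type female 1 or female 2; 1, 0 and 2 lower without them). Avpr1a, the vasopressin receptor of pericentral cells, measured 37, 43.2 and 44.8 CPM in wild-type males and 42.7 and 47.5 CPM in wild-type females. Mutant Avpr1a lay at 12.4 to 18 CPM, median 13.7 (log2 fold change −1.54, SE 0.16, adjusted p = 8.56e-07). Lgr5, a Wnt-responsive receptor of the same zone, measured 5.84 to 8.48 CPM in wild-type and 2.95 to 6.17 CPM in mutants (log2 change −0.97, SE 0.21, adjusted p = 0.00315). Slc22a3, a pericentral cation transporter, rose, at 2.12 to 2.84 CPM in wild-type and 5.06 to 19.073 CPM in mutants (log2 change 2.21, SE 0.30, adjusted p = 2.49e-05). Pigr, the carrier of immunoglobulin A into bile and a periportal gene, measured 24.5, 26.1 and 28.8 CPM in wild-type males and 19.3 and 22.9 CPM in wild-type females. Mutant Pigr lay at 66.6 to 334 CPM, median 137 (log2 fold change 2.78, SE 0.25, adjusted p = 1.97e-07). The groups of Avpr1a and Pigr did not overlap.

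The clock of the liver runs on a loop in which BMAL1 and CLOCK bind the E-box CACGTG and switch on their own repressors and the PAR bZIP output factors. Of 21 clock genes, 7 were higher (Ciart, Bhlhe41, Per2, Dbp, Upp2, Per3 and Tef; 4 without wild-type female 1) and 2 lower (Npas2 and Nfil3, both lost without mutant male 2, female 4 or female 5 or wild-type male 1, female 1 or female 2, and 1 of them without wild-type male 2 or 3 or mutant female 2 or 3). Ciart, a repressor of the loop, measured 0.182, 0.508 and 1.85 CPM in wild-type males and 1.06 and 1.83 CPM in wild-type females. Mutant Ciart lay at 7.2 to 17.4 CPM, median 11.7 (log2 fold change 3.36, SE 0.33, adjusted p = 5.63e-07); the change was 4.04 (adjusted p = 5.06e-08) without wild-type male 3. Per2, another repressor, measured 15.6, 9.48 and 17.7 CPM in wild-type males and 20.4 and 16.1 CPM in wild-type females. Mutant Per2 lay at 24.2 to 95.6 CPM, median 67.3 (log2 fold change 1.94, SE 0.31, adjusted p = 0.000182), with a log2 change of 1.28 (adjusted p = 0.00381) without mutant male 2. The output factors also rose: Dbp measured 4.4 to 11 CPM in wild-type and 10.5 to 24.9 CPM in mutants (log2 change 1.46, SE 0.26, adjusted p = 0.000392) and Tef measured 74.2, 58.2 and 70.8 CPM in wild-type males and 64.5 and 70.2 CPM in wild-type females. Mutant Tef lay at 92.6 to 146 CPM, median 105 (log2 fold change 0.69, SE 0.13, adjusted p = 0.000629). Groups overlapped in Dbp and not in the other 3. Bhlhe41, at 0 to 0.177 CPM in wild-type and 0.131 to 4.35 CPM in mutants (log2 change 3.04, SE 0.93, adjusted p = 0.0278), was near the limit of detection. Its log2 change was 2.23 (adjusted p = 0.00458) without mutant female 1, and the call was lost without mutant male 1 or wild-type male 1, male 3, female 1 or female 2, and in a fit of the P14 libraries alone (adjusted p = 0.0781). No source used here gives the hour at which cells were taken.

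Promoter windows of 18 of the 21 clock genes were in the RefSeq table (GRCm38.p6). The E-box, which reads the same on both strands, occurred in 6 of these 18 (33.3%), in 10.1% of the windows of tested genes (79.7% of tested genes have a window in the table) and in 7.24% of all 27025 windows of the same length. The 6 were Ciart, Tef and Bhlhe41, which rose, and Cry1, Per1 and Ppp1r3c, which were not called. Dbp, Per3 and Upp2 rose without one in this window. The 3 windows of genes that rose are given as those of called genes that hold the motif, 5′ to 3′ on the strand of the gene with E-boxes in capitals. They lie at chr3:95882179-95882478, minus strand (Ciart), chr15:81802423-81802722, plus strand (Tef) and chr6:145865371-145865670, minus strand (Bhlhe41). The 3 genes peaked in different mutants, Ciart in male 2, Tef in female 3 and Bhlhe41 in female 1. A match is a description of the letters and not a binding site.
Ciart: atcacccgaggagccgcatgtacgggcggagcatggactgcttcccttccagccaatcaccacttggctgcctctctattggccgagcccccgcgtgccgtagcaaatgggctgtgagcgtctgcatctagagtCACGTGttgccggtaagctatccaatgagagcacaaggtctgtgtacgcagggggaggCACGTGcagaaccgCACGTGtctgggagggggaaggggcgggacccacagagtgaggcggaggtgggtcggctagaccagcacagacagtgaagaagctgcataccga
Tef: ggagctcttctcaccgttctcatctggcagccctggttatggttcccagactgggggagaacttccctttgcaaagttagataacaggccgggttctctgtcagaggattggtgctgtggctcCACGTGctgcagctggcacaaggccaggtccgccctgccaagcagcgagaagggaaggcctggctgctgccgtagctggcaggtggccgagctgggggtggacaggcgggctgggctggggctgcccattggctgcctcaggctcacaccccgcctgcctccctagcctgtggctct
Bhlhe41: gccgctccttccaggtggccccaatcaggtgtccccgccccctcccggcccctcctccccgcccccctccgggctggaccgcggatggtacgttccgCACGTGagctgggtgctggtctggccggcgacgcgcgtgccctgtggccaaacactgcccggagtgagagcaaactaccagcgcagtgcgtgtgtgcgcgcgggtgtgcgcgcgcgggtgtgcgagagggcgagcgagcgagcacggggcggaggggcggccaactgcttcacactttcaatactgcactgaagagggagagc
The Ciart window holds 3 E-boxes, and the other windows hold 1 each.

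Some genes of antigen presentation and of the interferon response rose. Of 18 antigen presentation genes, 7 were higher and 0 lower, with a median of 0.67 (4 without mutant male 2 or wild-type male 1, female 1 or female 2), and of 29 interferon response genes, 11 were higher and 1 lower (6 higher without wild-type female 2; the lower call, Iigp1, was lost without mutant male 2 or wild-type male 2 or female 1). H2-K1, a class I heavy chain, measured 319.5, 309 and 339.5 CPM in wild-type males and 317 and 366 CPM in wild-type females. Mutant H2-K1 lay at 470.0 to 1141 CPM, median 737 (log2 fold change 1.31, SE 0.21, adjusted p = 0.000166). H2-D1 measured 96.2, 119 and 101 CPM in wild-type males and 87.1 and 95.1 CPM in wild-type females. Mutant H2-D1 lay at 149.5 to 267 CPM, median 199.8 (log2 fold change 1.13, SE 0.18, adjusted p = 0.000137). H2-Q4 measured 16.4 to 17.5 CPM in wild-type and 22 to 32.8 CPM in mutants (log2 change 0.73, SE 0.16, adjusted p = 0.00237). These heavy chains are near copies of one another. B2m, the light chain they share, measured 784, 865 and 629.5 CPM in wild-type males and 589.5 and 638 CPM in wild-type females. Mutant B2m lay at 965 to 1306 CPM, median 985 (log2 fold change 0.73, SE 0.16, adjusted p = 0.00254). Irf7, an interferon regulatory factor, measured 6.63 to 11.9 CPM in wild-type and 17.6 to 29.3 CPM in mutants (log2 change 1.18, SE 0.18, adjusted p = 0.000123), and Oasl1, an interferon-induced antiviral protein, measured 1.27 to 3.13 CPM in wild-type and 4.63 to 12.7 CPM in mutants (log2 change 1.94, SE 0.29, adjusted p = 9.45e-05). In all 6 genes every mutant was above every wild-type library. Nlrp12, a dampener of innate signalling, fell, at 12.3, 16.9 and 26.7 CPM in wild-type males and 34 and 30.1 CPM in wild-type females. Mutant Nlrp12 lay at 2.9 to 5.31 CPM, median 3.79 (log2 fold change −2.54, SE 0.23, adjusted p = 1.74e-07).

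**Figure D5:**
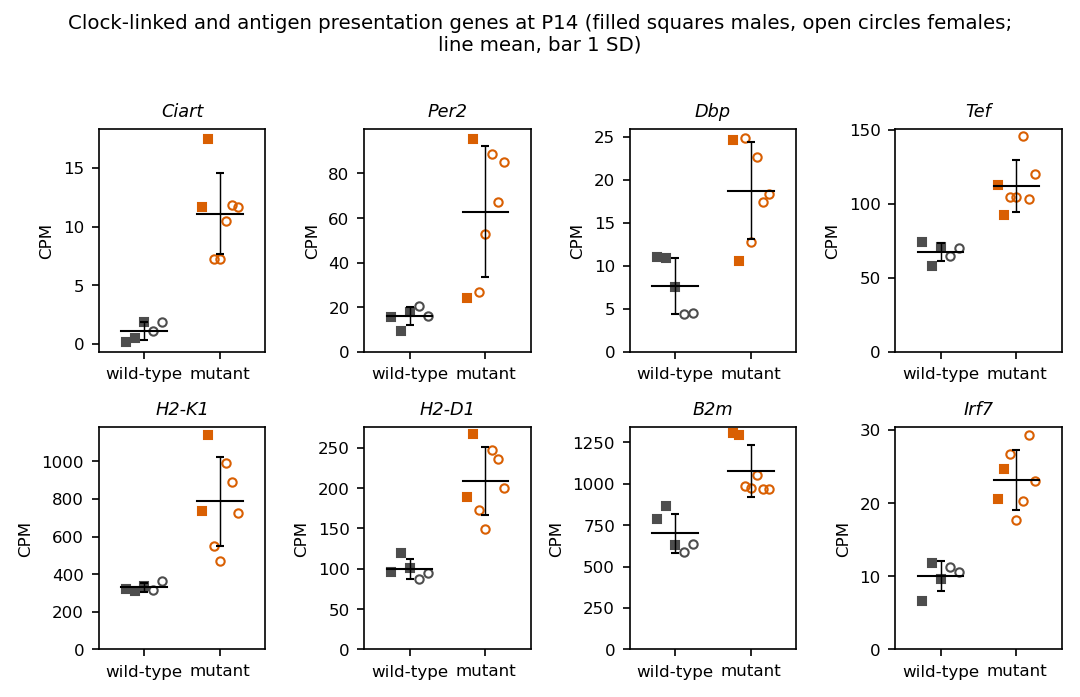
CPM (y axis, linear) of 4 clock-linked genes (upper row) and 4 genes of antigen presentation and interferon response (lower row) in each wild-type (grey) and mutant (orange) P14 library, with filled squares for males, open circles for females, a line at the mean and a bar of 1 SD. Every mutant is above every wild-type library in 7 of the 8 panels, and Dbp overlaps.

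Markers of myeloid cells also rose. Of 17 Kupffer cell and macrophage markers, 5 were higher and 0 lower (2 without wild-type female 2 or male 1, 1 without mutant male 1 or wild-type female 1, 10 in a fit of the P14 libraries alone and 13 with limma-voom), and the list summed to 363 to 497 CPM in wild-type and 458 to 785 CPM in mutants. Mpeg1, a macrophage perforin, measured 28.1 to 43.6 CPM in wild-type and 53.8 to 75.5 CPM in mutants (log2 change 0.82, SE 0.18, adjusted p = 0.00295). Of 17 granulocyte and myeloid progenitor markers, 9 were higher and 0 lower (4 without mutant male 1), summing to 10.2 to 20.2 CPM and 29.3 to 145 CPM. Mpo, a granule enzyme, measured 0.726 to 1.53 CPM in wild-type and 2.65 to 19.6 CPM in mutants (log2 change 2.47, SE 0.46, adjusted p = 0.000834). Prtn3, a granule protease, measured 0.893 to 1.44 CPM in wild-type and 2.85 to 8.89 CPM in mutants (log2 change 2.34, SE 0.33, adjusted p = 5e-05). No marker of either list was at 0 throughout wild-type. The class II genes H2-Aa, H2-Ab1 and Cd74, which professional antigen-presenting cells express, are 3 of the 7 antigen presentation genes called higher. Against the wild-type mean, the granulocyte list stood highest in mutant females 5 and 2 (2.53 and 1.77 on the log2 scale). It stood lowest of the mutants in male 2 (0.41). The antigen presentation list stood at 0.59, 0.12 and 0.64 in these 3. In mean log2 CPM, the Kupffer list was lowest of the mutants in female 2 (4.37, against 4.02 to 4.51 in wild-type). Antigen presentation was lowest there too (4.14, against 3.82 to 4.23 in wild-type). The Kupffer list was highest in mutant male 1 (5.10), where antigen presentation stood at 4.60, within a mutant range of 4.14 to 4.94. By edgeR no marker of B cells (9 tested), T and NK cells (12) or megakaryocytes (4) was called, with 0, 0 and 1 at an unadjusted p under 0.05. DESeq2 called none of them either, and limma-voom called 1 T and NK marker higher. Of 6 erythroid markers, 1 was lower, a call lost without mutant male 2 or wild-type male 1, male 2, female 1 or female 2. The part of these cells in the antigen presentation, interferon and acute phase results was not tested.

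Some stress genes also differed. Of 22 immediate early genes, which respond within minutes to growth signals and stress, 7 were higher and 1 lower (4 higher without mutant male 2; 2 lower without mutant male 1), and of 15 heat shock genes, 4 were higher (2 without mutant male 2). Atf3, a stress transcription factor, measured 0.363, 0.339 and 0.383 CPM in wild-type males and 0.528 and 0.532 CPM in wild-type females. Mutant Atf3 lay at 1.64 to 4.64 CPM, median 2.52 (log2 fold change 2.83, SE 0.44, adjusted p = 0.000123). Dusp1, a phosphatase that ends MAP kinase signals, measured 11.6 to 22.7 CPM in wild-type and 36.3 to 105 CPM in mutants (log2 change 2.0, SE 0.33, adjusted p = 0.000263). In neither gene did the groups overlap. Egr1, an immediate early factor, ran the other way, at 69.6, 18.1 and 67.9 CPM in wild-type males and 53.4 and 101 CPM in wild-type females. Mutant Egr1 lay at 6.43 to 21.9 CPM, median 14.8 (log2 fold change −2.23, SE 0.41, adjusted p = 0.000654), with wild-type male 2 inside the mutant range.

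Some structural genes rose. Of 30 cytoskeletal genes, 7 (23.3%) were higher and 0 lower (1 lower without mutant female 1). Of 38 collagen and matrix genes, 2 (5.26%) were higher and 1 (2.63%) lower, both shares below the background. Tagln2, an actin-binding protein, measured 10.3, 11.9 and 10.1 CPM in wild-type males and 12.2 and 10.7 CPM in wild-type females. Mutant Tagln2 lay at 31.2 to 40.6 CPM, median 34.2 (log2 fold change 1.64, SE 0.22, adjusted p = 2.98e-05). Ezr, which ties actin to the membrane, measured 2.48 to 3.81 CPM in wild-type and 7.96 to 11.6 CPM in mutants (log2 change 1.62, SE 0.17, adjusted p = 1.32e-06). Col27a1, a fibrillar collagen, measured 3.05 to 11.7 CPM in wild-type and 15 to 30.2 CPM in mutants (log2 change 1.40, SE 0.28, adjusted p = 0.00136); the number of matrix genes called higher was 4 without mutant female 5. Fn1, plasma fibronectin, was the 1 matrix gene that fell, at 2258 to 5228 CPM in wild-type and 1973 to 3448 CPM in mutants (log2 change −0.81, SE 0.21, adjusted p = 0.00916), with wild-type male 2 inside the mutant range; 4 fell without mutant female 1, and 2 fell without wild-type male 2 or 3 or mutant male 1 or female 2, 4 or 5. Markers of stellate cells (1 of 16 higher, 0 without mutant male 2 and 3 without mutant female 5) and endothelial cells (2 of 18, or 11.1%, higher, and between 0 and 3 over the leave-outs) were called no more often than the background, but single mutants stood apart. As given above, both lists were highest in mutant male 1 and female 1, and the stellate list was lowest in mutant females 4 and 5 (3.14 and 2.93), below every wild-type library. Their summed levels were 460 to 575 and 504 to 778 CPM in wild-type and 361 to 914 and 562 to 1410 CPM in mutants. Of 14 cholangiocyte and progenitor markers, 3 were higher and 2 lower: Bicc1, an RNA-binding protein, measured 2.42 to 3.64 CPM in wild-type and 5.39 to 9.17 CPM in mutants (log2 change 1.18, SE 0.20, adjusted p = 0.000337), and the keratin Krt23 fell, at 11.2 to 20.9 CPM in wild-type and 1.72 to 6.21 CPM in mutants (log2 change −2.07, SE 0.30, adjusted p = 5.49e-05).

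Among the remaining falls, several genes dropped by most of their wild-type level. Abca8a, a lipid transporter, measured 212, 200.4 and 165 CPM in wild-type males and 189 and 116 CPM in wild-type females. Mutant Abca8a lay at 26.6 to 51.8 CPM, median 32.8 (log2 fold change −2.15, SE 0.22, adjusted p = 8.56e-07). Pnliprp1, a lipase-related protein, measured 22.4, 30.4 and 23 CPM in wild-type males and 24.3 and 18.6 CPM in wild-type females. Mutant Pnliprp1 lay at 0.41 to 5.68 CPM, median 2.09 (log2 fold change −3.25, SE 0.48, adjusted p = 9.27e-05), with a log2 change of −4.22 (adjusted p = 6.08e-05) without mutant male 1. Arrdc4, an arrestin-like regulator of glucose uptake, measured 16.7 to 21.1 CPM in wild-type and 2.03 to 8.18 CPM in mutants (log2 change −2.34, SE 0.28, adjusted p = 7.33e-06). Acp1, a low molecular weight phosphatase, measured 18.8 to 44.5 CPM in wild-type and 5.89 to 8.63 CPM in mutants (log2 change −1.89, SE 0.19, adjusted p = 7.31e-07). Plcxd2, a phospholipase domain protein, measured 70.4 to 96.2 CPM in wild-type and 20.5 to 34.5 CPM in mutants (log2 change −1.55, SE 0.15, adjusted p = 6.79e-07), and Wrnip1, a helicase-interacting ATPase, measured 27.4 to 33.1 CPM in wild-type and 11.3 to 16.4 CPM in mutants (log2 change −1.20, SE 0.11, adjusted p = 2.23e-07). In all 6 genes every mutant lay below every wild-type library. Cell cycle genes had a lower median, −0.83 over 43 genes, with 8 lower and 1 higher (Ccnd1). That lower count rested on single libraries: 1 without wild-type female 2, 3 without mutant male 1, 2 without mutant male 2 and 14 without mutant female 4. Ccnd1 lost its call without wild-type male 1, male 3, female 1 or female 2 or mutant male 2, female 4 or female 5. Against the wild-type mean, the list lay at −2.65 on the log2 scale in mutant female 3 and at 0.29 in mutant female 4.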

How the data were processed

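Strand-specific polyadenylated RNA libraries of mouse hepatocytes were read as 75 bp single-end reads, per the labels' protocols. The authors deposited raw counts, a whole number of reads for each gene. The submitters' processing notes name the build mm9 and the tools bedtools, DESeq2 1.14.1, HTSeq 0.6.1p1 and STAR 2.4.2a. The sources used here do not give their roles or the strand setting of the counting, so reads of overlapping and near-identical genes are uncertain. The table holds 24422 genes, of which 5824 were at 0 in every library.

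The count analysis used edgeR 4.0.16 in R 4.3.3. Genes kept by filterByExpr (minimum count 10) were scaled by TMM, and a quasi-likelihood model of 8 groups of age, genotype and sex was fitted to the 22 libraries, with 14 residual degrees of freedom. Groups of 2 libraries thus borrow their spread from the rest. The contrast is the mean of the male and female differences at P14, tested 2-sided with Benjamini-Hochberg adjustment over all genes at 0.05. Fitted log2 fold changes use a prior count of 0.125, and a prior count of 2 went into the log2 CPM of list means and principal components. On simulated counts, 83% of 2-fold and 100% of 4-fold changes were recovered in a fit of 13111 genes. The changed genes all averaged over 1 CPM, so the rates do not cover genes of a lower level. Genes were drawn independently, without the shared differences between libraries seen here. Replicates differed by more than counting error (chi-square per gene 16.9 to 248, the highest between the mutant males). The labels do not say whether each library comes from its own animal, and the p-values describe only how far these samples spread, which may be technical. The authors' normalized table was not used.

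Members and the 53 gene lists were chosen with earlier results of these data known. Lists are described by counts and medians beside those of all genes, with no set test. By rule, genes to name were PRC2 subunits, the largest and firmest called changes per direction and up to 3 called members of each list per direction. Those of largest fold change were taken only from genes whose groups did not overlap, and the firmest by smallest p. For genes so named, a lack of overlap or a small p is no separate support. The rule named 244 genes, of which the text gives values for 99. Most others were left out for length, and a few are not reported here. The 15 other genes with values (Zdbf2, Cdkn2a, Cdkn2b, Ppara, Hadh, Insig1, Pygl, Alb, Stat5b, Hnf4a, Tef, Bhlhe41, H2-D1, H2-Q4 and Irf7) were chosen after their values were seen. Genes with 1 to 3 wild-type reads are given as a ratio of summed reads per scaled library total, with an exact binomial interval. Alternatives were 10 other settings, among them limma-voom (limma 3.58.1) and DESeq2 1.42.0, and leaving out each of the 12 libraries. Promoters are from RefSeq (GRCm38.p6); no coordinates were converted.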

Additional observations from a re-analysis of the deposited data

Results flagged for a closer look

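The 5 mutant females form the only P14 group large enough for a check of single libraries against the rest of their group, on log2 CPM. Of 114 genes checked, 6 had 1 female whose gap to the nearest other was a large part of the group's range, and chance alone flags about 1 group in 20. Eed measured 6.63 CPM in mutant female 1, against 9.09 in the nearest other female. G0s2 measured 13.3 CPM in mutant female 2, the next lowest being 61.8. Abcc3 was lowest in mutant female 4, at 131 CPM against 198. B2m was highest in mutant female 3, at 1050 CPM against 985. H2-Q4 was lowest in mutant female 2, at 22 CPM against 30.7. Pnliprp1 was lowest in mutant female 3, at 0.41 CPM against 2.07.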

How the results depend on the processing

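Leaving out each library in turn moved the number of genes called higher between 986 and 1611 and of genes called lower between 481 and 984, with the lowest values without mutant male 2. Within females alone the counts were 671 and 299, and within males alone 737 and 271. Between 0 and 6 genes passed the test between the sexes, with 6 without mutant male 1. Ezh2 ran from −0.73 to −0.56 over the leave-outs, and was −0.50 (adjusted p = 0.25) in females alone and −0.77 (adjusted p = 0.116) in males alone. 2 genes changed sign, neither of them called: Suz12 in females alone (0.28, adjusted p = 0.457) and Hnf4a in males alone (0.06, adjusted p = 0.891). The other settings gave 1375 to 1906 genes higher and 724 to 1382 lower, the most with limma-voom. The replicate numbers recur between groups. Of 13 same-numbered pairs, 1 correlated above 0.1 in deviations from group means (mutant male 1 with female 1, 0.519), with a median of −0.0023. Of 38 other pairs, 10 did. In a group of 2 libraries the deviations mirror each other, which draws the median to 0. These values thus cannot decide whether the numbers pair the samples. With a replicate block 1375 genes were higher, 1312 of them also called without it, and 902 lower (704 shared); sterol genes called higher numbered 7 and cell cycle genes called lower 38. Of the genes with values in the text, those whose call was lost without 1 library are named with it. Limits are the 2 mutant males, 1 of them with the highest Rn45s share, and the low counts behind many of the largest ratios.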
